A study of Mus musculus with 29 samples.

Results

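Gastrocnemius muscle was compared between mice on calorie restriction alone (CR) and mice on exercise training alone (EX), to ask what diet without training and training without diet leave different in the same muscle. The libraries were taken by their group labels, 3 of CR and 4 of EX, which makes 7 of the 14 gastrocnemius libraries and of the 29 libraries of the series. All mice were male wild-type C57BL/6J, and the interventions began at 8 weeks of age and lasted 8 weeks. The CR mice stayed sedentary while their food was lowered step by step to 70% of free intake, and the EX mice ate freely and ran on a treadmill. Control mice ate freely and stayed sedentary, mice of the CREX group had both interventions, and every group was fasted for 6 h before harvest, with the last run 24 h earlier. Both groups were sampled once, in the fasted state and a day after any run, so neither shows the fed muscle or the hours right after exercise. Total counts per library were 23062654 to 23425284 in CR and 23089459 to 23252417 in EX, between 17312 and 18126 genes had a read, and 3 counts stood at 0.115 to 0.132 CPM in CR and at 0.136 to 0.140 CPM in EX (CPM are counts scaled to the library total with TMM factors).

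The gastrocnemius is a mixed limb muscle in which fast glycolytic fibres dominate and a smaller part holds slow oxidative fibres. Under food shortage, glucocorticoid hormone and the FOXO transcription factors are known to move muscle towards sparing glucose, releasing amino acids and breaking down protein. Endurance training is known for the opposite side of muscle biology, namely more mitochondria, more capillaries and remodelled matrix.

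The tissue label was checked against markers. Summed CPM of 8 markers of gastrocnemius fibres (among them Ckm, Acta1 and Myh4) was 146353 to 201966 in CR and 124457 to 145062 in EX. Markers of liver cells stood apart, with summed CPM of 43.5, 246 and 238 in the CR libraries against 2.22, 0.181, 0.271 and 1.54 in the EX libraries. The control libraries reached at most 6.75, and the CREX libraries had 52.5, 0.411 and 0.595. All 7 hepatocyte markers tested were higher in CR, and Alb, the main plasma protein made by liver, stood at 27.9, 153 and 144 CPM in CR and at 1.31, 0, 0.0452 and 0.652 CPM in EX.

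The slow fibre content also differed among the EX libraries. Slow fibre markers, which are typical of soleus, summed to 1927, 2159 and 2116 CPM in CR and to 485, 1282, 2102 and 865 CPM in EX, so EX library 3 lay within the CR range and EX library 1 lay far below it. White adipocyte markers summed to 274, 136 and 284 CPM in CR and to 306, 143, 193 and 143 CPM in EX. The defining adipocyte gene Adipoq followed single libraries, at 9.92, 0.869 and 13.4 CPM in CR and at 12.8, 0.226, 0.271 and 0.14 CPM in EX. Markers of macrophages overlapped between the groups (22.9 to 38.4 against 21.6 to 40.8 CPM, 0 of 8 called), and those of neutrophils, B cells and T cells were near 0 in both. Dendritic cell markers summed to 4.39 to 6.09 CPM in CR and 5.96 to 8 CPM in EX, and of the 2 tested neither was called. In bulk tissue, fewer cells of a type and less RNA per cell cannot be told apart.

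**Figure D1:**
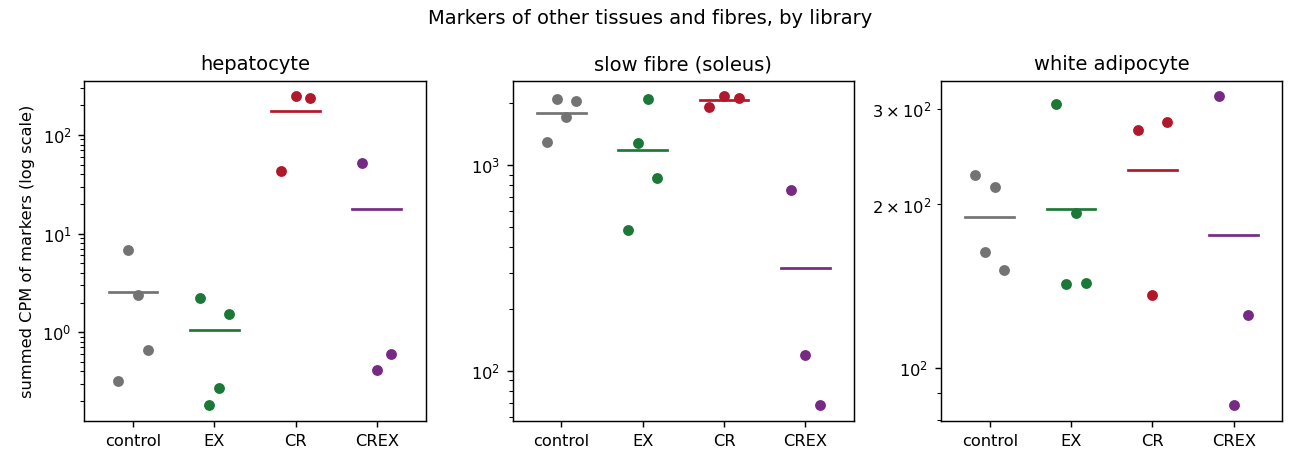
Summed CPM (log axis) of hepatocyte, slow fibre and white adipocyte markers in each gastrocnemius library, by group, with the horizontal line at the group mean. The hepatocyte sum was 43.5 to 246 CPM in CR and at most 2.22 CPM in EX, while the slow fibre sum ran from 485 to 2102 CPM within EX and from 1927 to 2159 CPM within CR.

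A total of 972 DEGs were identified in CR compared to EX, 7.37% of the 13187 genes tested. A DEG is a gene with a Benjamini-Hochberg adjusted p under 0.05 in edgeR's quasi-likelihood test and a fold change above 1.5. In CR 400 genes were upregulated (3.03%) and 572 were downregulated (4.34%). Of the upregulated genes 209 differed by 2-fold or more and 90 by 4-fold or more, and of the downregulated genes 250 and 36 did so. For 29 of the upregulated genes every EX library held 3 counts or fewer. CR and EX libraries did not overlap for 959 of the DEGs, against 26.2% of all genes tested, and the median log2 fold change over all genes tested was 0.0046. Nearly all DEGs thus lacked overlap, so a lack of overlap in a single DEG describes its values and adds no support to its call. With the slow fibre score (mean log2 of CPM plus 1 over the slow fibre markers) as a covariate there were 436 DEGs, 181 higher and 255 lower, and without EX library 2 there were 619.

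Neither group in itself shows which of them had left the level of untreated muscle, so both were set beside the 4 control libraries. These comparisons share libraries with each other and with CR against EX, and are given side by side only. CR against control gave 1264 DEGs (9.6% of 13173 genes tested), 563 higher and 701 lower. EX against control gave 10 DEGs (0.0775% of 12907), 3 higher and 7 lower, with 884 genes at an unadjusted p under 0.05. The plot of list medians sets the 3 comparisons beside each other for each gene list. Counts of DEGs of CR against EX in each list below stand against 3.03% higher and 4.34% lower among all genes tested.

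**Figure D2:**
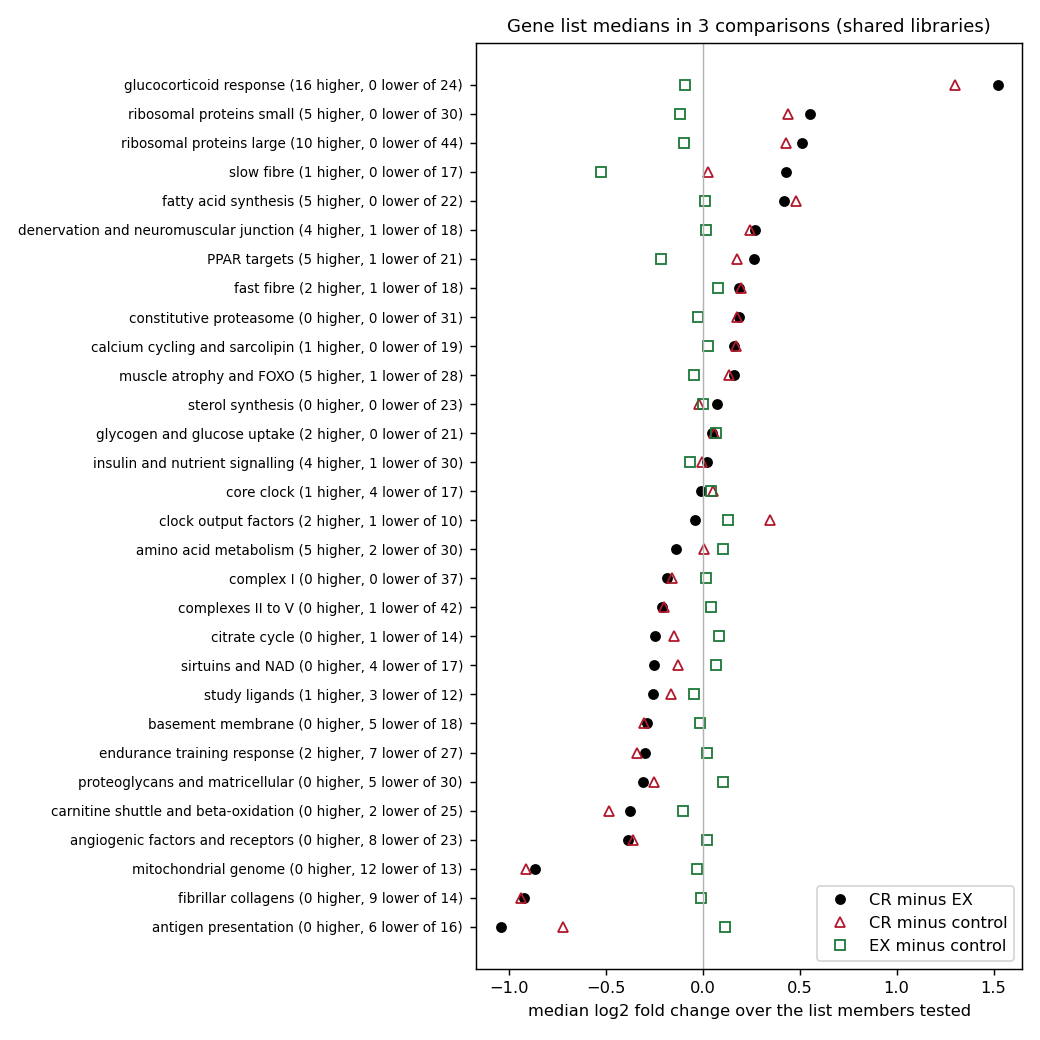
Median log2 fold change of 30 gene lists for CR minus EX (filled circles), CR minus control (triangles) and EX minus control (squares), with the counts of DEGs of CR against EX after each list name. Glucocorticoid response genes were highest (median 1.52) and antigen presentation genes lowest (median -1.04) in CR minus EX, and the 3 comparisons share libraries.

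Among the functional gene lists, genes that respond to glucocorticoids had the highest median in CR compared to EX, below that of the hepatocyte markers (7.05). Of 24 such genes 16 were DEGs, all higher in CR, 23 had a positive sign, and the median log2 fold change was 1.52. The same list had a median of 1.30 in CR minus control and of -0.09 in EX minus control. Leaving out single libraries gave 11 to 20 DEGs in the list. Fkbp5 (chr17:28398753-28486149 on GRCm38), which encodes a chaperone that damps the glucocorticoid receptor and is a direct target of it, had 119, 79.7 and 95.6 CPM in CR and 18.1, 10.6, 10.7 and 10.2 CPM in EX. Every CR library lay above every EX library, and the log2 fold change was 2.99 ± 0.21 (SE, adjusted p = 0.000135). Control muscle held 14.3 ± 0.978 CPM of Fkbp5 (SD, n = 4), close to the EX level, and the CREX libraries held 99.1, 147 and 114 CPM.

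The other receptor targets covered transcription factors, signalling adaptors and a metabolic enzyme. Zbtb16, a zinc finger transcription factor, stood at 110, 72.6 and 104 CPM in CR and at 34.3, 34.8, 29.9 and 27.3 CPM in EX (log2 fold change 1.60 ± 0.15, adjusted p = 0.00035). Tsc22d3, the leucine zipper protein GILZ that carries part of the anti-inflammatory action of glucocorticoids, stood at 331, 214 and 273 CPM against 132, 118, 94.9 and 88.9 CPM (1.33 ± 0.17, adjusted p = 0.00176). Glul, the enzyme that makes glutamine for export from muscle, stood at 927, 644 and 764 CPM against 191, 178, 158 and 89.4 CPM (2.34 ± 0.23, adjusted p = 0.000531). The groups did not overlap for any of these genes, and the lowest CR library was CR library 2 in each.

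Further members were Hif3a, a hypoxia-inducible factor subunit (log2 fold change 2.72 ± 0.27), Pik3r1, the regulatory subunit of PI3 kinase (1.78 ± 0.23), and Sesn1, a sestrin that restrains mTORC1 (1.15 ± 0.18). Pik3r1 varied most within CR, at 27.6, 43.2 and 57.6 CPM, and was still above the EX libraries, which reached 14.8 CPM. Klf9, Cebpb and Dusp1, also known receptor targets, had log2 fold changes of 0.19, 0.51 and -0.06 and did not pass. The list member Tat, a tyrosine-degrading enzyme typical of liver, had 0.746, 6.52 and 4.93 CPM in CR, the order of the hepatocyte markers, and the part of liver RNA in this value was not tested.

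Foxo1 and Foxo3 rose in CR, while Foxo6 fell and the atrophy ligase Fbxo32 did not pass the test. Foxo1 (chr3:52268337-52350109), a driver of the fasting response in muscle, had 80.7, 77.2 and 65.3 CPM in CR and 16.9, 16.1, 13.4 and 11.2 CPM in EX. It had the smallest adjusted p of all genes (9.16e-05, shared with Doc2b) and a log2 fold change of 2.37 ± 0.14, and control muscle stood at 14.4 ± 1.48 CPM. Foxo3, its relative that acts on autophagy and protein breakdown, had 36.9, 31.8 and 32.4 CPM against 18, 17.5, 14.9 and 13.6 CPM (1.08 ± 0.12, adjusted p = 0.000729). Klf15, a factor of amino acid breakdown induced by glucocorticoids, had 97.1, 64.6 and 73.8 CPM against 44.0, 41.7, 34.6 and 25.9 CPM (1.11 ± 0.19, adjusted p = 0.0065). All CR libraries were above all EX libraries for these 3 genes.

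Foxo6, a family member that responds to insulin differently, went the other way, with 0.965, 3.00 and 2.79 CPM in CR and 7.10, 8.41, 8.36 and 10.9 CPM in EX (log2 fold change -1.93 ± 0.30, adjusted p = 0.00432). Among the ubiquitin ligases of muscle atrophy, values are given for Fbxo32, which overlapped between the groups. Fbxo32 (atrogin-1) had 558, 180 and 231 CPM in CR and 234, 243, 160 and 168 CPM in EX, so CR library 1 alone stood above the EX range (0.69 ± 0.38, adjusted p = 0.282). In the whole list of 28 atrophy and FOXO genes 5 rose, 1 fell and the median was 0.16, and 3 rose with the slow fibre score as a covariate. None of 31 constitutive proteasome subunits passed, and their median was 0.19, which was 0.0061 without CR library 1.

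**Figure D3:**
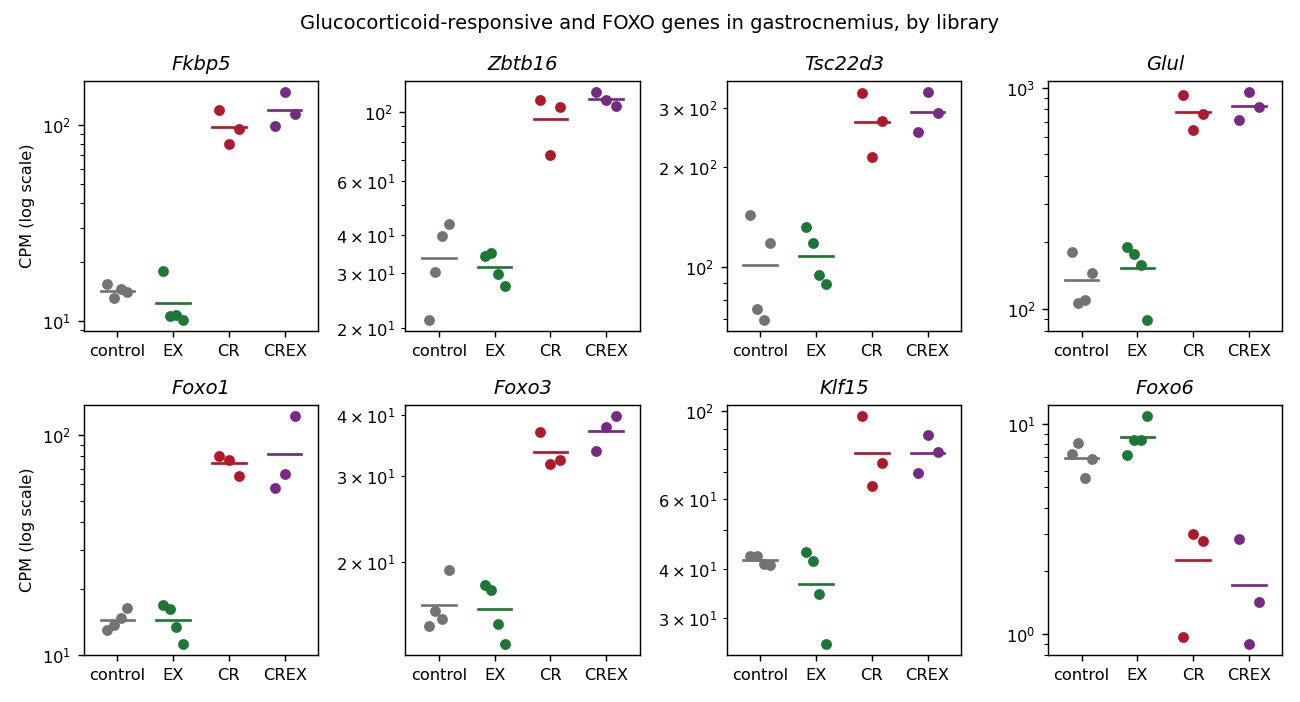
CPM (log axis) of glucocorticoid-responsive genes and FOXO family genes in each gastrocnemius library, by group, with the horizontal line at the group mean. For Fkbp5 the CR libraries lay at 79.7 to 119 CPM and the EX libraries at 10.2 to 18.1 CPM, while Foxo6 was higher in EX (7.10 to 10.9 CPM) than in CR (0.965 to 3.00 CPM).

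Clock genes moved in both directions. The circadian clock of muscle rests on CLOCK and BMAL1, which bind the E-box CACGTG and switch on their own repressors, while REV-ERB proteins repress at other sites and PAR-bZIP factors such as DBP carry the rhythm to output genes. Of 17 core clock genes 1 rose and 4 fell in CR, and of 10 output factors 2 rose and 1 fell. The E-box stands in the 250 bases before the start of 6.02% of all 32851 RefSeq promoters (GRCm38.p6), and of the 13 core clock genes matched to that table Per1, Cry1, Bhlhe41 and Ciart held it. It also stood in 4 of 21 matched promoters of glucocorticoid response genes and in 1 of 10 of clock output factors. The half-site of the glucocorticoid response element (AGAACA or TGTTCT) stood in 1 of the 21 glucocorticoid promoters, against 16.1% of all promoters. The D-box (TTATGTAA or TTACATAA) stood in 1 of the 13 core clock promoters, against 0.819% of all. Sites outside these windows were not searched. CACGTG reads the same on both strands. Shown are the repressors Bhlhe41 and Ciart, which fell, and Per1, which did not pass, with the E-box in capitals. The windows are chr6:145865421-145865670 (minus strand, 1 match) for Bhlhe41, chr3:95882229-95882478 (minus strand, 3 matches) for Ciart and chr11:69098699-69098948 (plus strand, 1 match) for Per1.
Bhlhe41: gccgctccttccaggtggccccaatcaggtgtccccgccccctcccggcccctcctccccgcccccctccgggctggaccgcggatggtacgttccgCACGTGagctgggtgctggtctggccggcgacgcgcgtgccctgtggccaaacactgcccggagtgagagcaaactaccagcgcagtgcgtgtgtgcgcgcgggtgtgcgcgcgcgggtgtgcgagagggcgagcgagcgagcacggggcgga
Ciart: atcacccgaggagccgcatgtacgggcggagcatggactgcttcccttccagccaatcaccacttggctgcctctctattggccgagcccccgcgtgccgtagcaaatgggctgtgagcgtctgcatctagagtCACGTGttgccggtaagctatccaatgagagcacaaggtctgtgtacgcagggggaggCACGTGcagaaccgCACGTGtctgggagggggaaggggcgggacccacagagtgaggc
Per1: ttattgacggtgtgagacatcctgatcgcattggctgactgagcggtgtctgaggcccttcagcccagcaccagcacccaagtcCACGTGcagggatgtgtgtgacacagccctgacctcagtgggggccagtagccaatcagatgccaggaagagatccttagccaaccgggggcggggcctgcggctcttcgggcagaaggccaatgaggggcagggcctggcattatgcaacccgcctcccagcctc

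Bhlhe41 (DEC2), a repressor that acts on E-boxes, had 11.2, 23.7 and 19 CPM in CR and 42.2, 43.1, 50.4 and 69.7 CPM in EX (log2 fold change -1.52 ± 0.26, adjusted p = 0.00797). Ciart (CHRONO), another repressor of CLOCK and BMAL1, had 2.33, 4.54 and 4.81 CPM against 7.60, 8.64, 13.8 and 6.47 CPM (-1.22 ± 0.30, adjusted p = 0.0316). Ciart passed by a narrow margin, and the adjusted p was 0.0966, 0.0661, 0.0666 and 0.0543 without CR library 1, CR library 2, EX library 2 and EX library 3. Per1, a period repressor that glucocorticoids also induce, had 62.3, 75.8 and 88.1 CPM in CR and 58.6, 51.0, 61.6 and 20.8 CPM in EX, and did not pass (0.65 ± 0.32, adjusted p = 0.232). Among the promoters shown, the E-box was thus found in those of genes that fell and of a gene that did not pass. The expression of Cry1, which also held it, is not reported here.

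Nr1d1, the nuclear receptor REV-ERB alpha, had 66.0, 46.2 and 42.3 CPM in CR and 147, 104, 130 and 183 CPM in EX (log2 fold change -1.45 ± 0.21, adjusted p = 0.0033), with 212 ± 51.4 CPM in control muscle. Every CR library was below every EX library. Among output factors, Dbp had 31.1, 50.7 and 49.0 CPM in CR and 71.1, 94.8, 126 and 103 CPM in EX and fell (-1.18 ± 0.21, adjusted p = 0.00767). Nfil3, which represses the sites that Dbp activates, had 65.9, 28.3 and 36.4 CPM against 12.9, 11.6, 10.3 and 9.27 CPM and rose (1.99 ± 0.27, adjusted p = 0.00337). Arntl, the gene of BMAL1, overlapped between CR and EX (0.33 ± 0.47, adjusted p = 0.699) and was lower in EX than in control (-1.20 ± 0.17). The hour of harvest and of feeding in each group is not given in the sources used here, and its part in these values was not tested.

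Among genes of fuel handling, Ppp1r3c and Slc2a3 rose in CR, while most genes of glycogen and glucose uptake did not pass. Ppp1r3c (chr19:36731731-36736604), which tethers protein phosphatase 1 to glycogen and favours glycogen synthesis, had 902, 555 and 500 CPM in CR and 152, 94.3, 67.7 and 96.6 CPM in EX (log2 fold change 2.67 ± 0.29, adjusted p = 0.00137). Slc2a3, the glucose transporter GLUT3, had 13.1, 11.8 and 12.7 CPM against 3.85, 4.61, 4.43 and 4.15 CPM (1.56 ± 0.12, adjusted p = 0.000135). These were the 2 DEGs among 21 genes of glycogen and glucose uptake (9.52%, against 7.37% of all genes tested), whose median was 0.05. Pygm, the muscle glycogen phosphorylase, overlapped between groups (0.34 ± 0.15, adjusted p = 0.176).

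In insulin and nutrient signalling 4 of 30 genes rose and 1 fell. Grb14, an adaptor that blocks the insulin receptor, had 7.37, 9.48 and 11.7 CPM in CR and 31.1, 29.2, 24.4 and 32.0 CPM in EX (log2 fold change -1.61 ± 0.16, adjusted p = 0.000456), and control muscle held 30.6 ± 4.16 CPM. Pik3r1 and Sesn1, described above, were among the genes that rose, together with Tbc1d4, the AS160 protein that gates GLUT4 traffic (0.73 ± 0.14, adjusted p = 0.0104). Tbc1d4 lost the call with the slow fibre score as a covariate (adjusted p = 0.0801).

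Amino acid metabolism was mixed, with 5 of 30 genes higher and 2 lower. Gpt2, the mitochondrial alanine aminotransferase that passes amino groups to pyruvate, had 329, 299 and 304 CPM in CR and 116, 121, 126 and 137 CPM in EX (log2 fold change 1.32 ± 0.10, adjusted p = 0.000139). Amd1, an enzyme of polyamine synthesis, had 356, 439 and 494 CPM against 797, 944, 746 and 1212 CPM (-1.11 ± 0.18, adjusted p = 0.00547). Neither gene overlapped between groups, and Glul, described above, was the gene of this list with the largest rise. The number of lower genes in the list was 1 without CR library 2 or EX library 2 and 4 without EX library 3, and with the slow fibre score as a covariate 2 were higher and 1 lower.

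Among lipid genes Plin4 and Ucp3 rose, and most genes of mitochondrial fatty acid oxidation were lower in sign. Plin4, a lipid droplet coat protein, had 555, 584 and 554 CPM in CR and 245, 235, 219 and 176 CPM in EX (log2 fold change 1.37 ± 0.12, adjusted p = 0.000219). Ucp3, the muscle uncoupling protein, had 385, 259 and 214 CPM against 167, 144, 125 and 152 CPM (0.97 ± 0.19, adjusted p = 0.0109). Both are targets of PPAR receptors, of which 5 among 21 rose and 1 fell. The number that rose was 3, 3, 2 and 3 without CR library 2, CR library 3, EX library 2 and EX library 3. The highest log2 fold change in this list was 9.58, where the hepatocyte markers had a median of 7.05. The part of liver RNA in the values of this list was not tested. Pdk4, the kinase that closes the pyruvate dehydrogenase gate, had 1345, 866 and 875 CPM in CR and 821, 423, 306 and 397 CPM in EX. It did not pass (1.09 ± 0.33, adjusted p = 0.0678), and without EX library 1, the highest of EX, the adjusted p was 0.00646.

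Of 22 fatty acid synthesis genes 5 rose, with a median of 0.42. Pnpla3, a lipid-handling enzyme switched on with lipid synthesis, had 12.9, 11.9 and 13.9 CPM in CR and 4.07, 2.08, 3.07 and 2.75 CPM in EX (log2 fold change 2.10 ± 0.19, adjusted p = 0.000219). The others, Acly, Acaca, Elovl6 and Thrsp, were high in CR libraries 1 and 3, which were also the CR libraries with more adipocyte RNA. Elovl6, a fatty acid elongase, had 5.97, 1.42 and 13.1 CPM in CR and 1.22, 0.452, 0.362 and 0.326 CPM in EX. Within CR this was the order of Adipoq, while EX library 1 held 12.8 CPM of Adipoq with 1.22 CPM of Elovl6. The part of adipocyte RNA in the values of these genes was not tested. The number that rose was 1, 1, 2 and 2 without CR library 1, EX library 2, EX library 3 and EX library 4, and 8 with the white adipocyte score as a covariate.

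The carnitine shuttle and beta-oxidation leaned the other way, with 21 of 25 genes lower in sign and a median of -0.38. Only Acads and Acsl1 were DEGs (8%, against 7.37% of all genes tested). Acads, the short-chain acyl-CoA dehydrogenase, had 34.7, 40.3 and 37.9 CPM in CR and 59.8, 65.7, 54.8 and 59.1 CPM in EX (log2 fold change -0.67 ± 0.10, adjusted p = 0.0033). Hadha and Hadhb, both subunits of the trifunctional protein, differed by -0.46 ± 0.10 (adjusted p = 0.0188) and -0.49 ± 0.10 (adjusted p = 0.0106), without overlap and under the fold minimum. The list had a median of -0.49 with 7 lower DEGs in CR minus control and a median of -0.10 in EX minus control. The number of lower genes against EX was 1 without CR library 1, which ended the call of Acsl1 by the fold minimum (-0.55), and 4 without CR library 3 or EX library 3. Acsl1 also lost the call with the slow fibre score as a covariate (adjusted p = 0.114).

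Transcripts of the mitochondrial genome were lower in CR as a block. The 13 coding genes took 21.2, 24 and 23.6% of all counts in CR and 35.7, 35.6, 35.6 and 33.5% in EX. Control muscle held 33.3 to 37.2%, and the CREX libraries held 27.3, 18.5 and 19.6%. Of the 13 genes 12 fell, with a median log2 fold change of -0.86, and ATP8, the gene with the fewest counts of the set, did not pass (-0.51 ± 0.34, adjusted p = 0.364) except without CR library 3 (-0.996, adjusted p = 0.0454). ND2, a core subunit of complex I, had 8508, 10874 and 10028 CPM in CR and 21308, 21566, 21157 and 20655 CPM in EX (-1.11 ± 0.11, adjusted p = 0.000531). COX1, the catalytic subunit of cytochrome oxidase, had 63971, 62961 and 60787 CPM against 103246, 99506, 98239 and 96655 CPM (-0.67 ± 0.10, adjusted p = 0.00364). The list median was -0.91 in CR minus control and -0.03 in EX minus control.

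Nuclear genes of the same respiratory chain differed less. None of 37 nuclear complex I genes passed, 35 were lower in sign and the median was -0.19, and of 42 genes of complexes II to V 1 fell, 35 were lower in sign and the median was -0.21. The gene that fell was Cox7a1, the muscle form of a cytochrome oxidase subunit, with 112, 78.4 and 99.4 CPM in CR and 169, 149, 172 and 176 CPM in EX (log2 fold change -0.78 ± 0.14, adjusted p = 0.00686), and it lost the call with the slow fibre score as a covariate (adjusted p = 0.0528). Without CR library 1 the medians of complex I and of complexes II to V were -0.32 and -0.34, with 4 and 2 lower DEGs. In the citrate cycle list of 14 genes the median was -0.25 and 1 gene was a DEG (7.14%, against 7.37% of all genes tested). It was Mdh1, the cytosolic malate dehydrogenase and not the mitochondrial form of the cycle (-0.64 ± 0.11, adjusted p = 0.00575). Mdh1 lost the call in 1 edgeR fit over all gastrocnemius groups (adjusted p = 0.0697) and with the slow fibre score as a covariate (adjusted p = 0.0605). Citrate synthase, Cs, differed by -0.26 ± 0.10 and did not pass (adjusted p = 0.129).

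Genes known to respond to endurance training were lower in CR more often than higher, at 7 and 2 of 27, with a median of -0.30. Ppargc1b, a coactivator of mitochondrial genes, had 5.88, 8.38 and 7.64 CPM in CR and 16.2, 18.8, 19.9 and 16.9 CPM in EX (log2 fold change -1.29 ± 0.13, adjusted p = 0.000532). Ppargc1a, its better known relative, had 24.9, 37.3 and 27.9 CPM against 31.9, 35.4, 24 and 25.6 CPM and overlapped throughout (0.04 ± 0.16, adjusted p = 0.902). Sirt3, the deacetylase of the mitochondrial matrix, had 8.95, 10.8 and 10.1 CPM against 18.8, 17.9, 14.0 and 18.2 CPM (-0.79 ± 0.13, adjusted p = 0.00441). Fndc5, the irisin precursor, had 80.8, 76.1 and 87.9 CPM against 167, 144, 134 and 146 CPM (-0.86 ± 0.11, adjusted p = 0.00159). The control levels of these genes stood at 17.6 ± 3.57 CPM for Ppargc1b, 16.2 ± 1.97 CPM for Sirt3 and 143 ± 20.1 CPM for Fndc5, so EX lay near control and CR below it. With the slow fibre score as a covariate 4 genes of the list fell and without CR library 1 its median was -0.16. In 1 edgeR fit over all gastrocnemius groups 3 fell, and Fndc5 lost the call there (adjusted p = 0.159). The genes that rose were Ucp3, described above, and Angptl4, an inhibitor of lipoprotein lipase (2.23 ± 0.55, adjusted p = 0.0452), which lost the call when any library other than EX library 1 was left out (adjusted p = 0.057 to 0.143).

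Cytosolic ribosomal protein genes leaned higher in CR. All 44 large subunit genes and all 30 small subunit genes had a positive sign, with medians of 0.51 and 0.55, and 10 and 5 of them were DEGs. The genes together took 2.18, 1.49 and 1.46% of counts in CR and 0.969 to 1.13% in EX, so CR library 1 stood highest, while control muscle held 0.963 to 1.47%. Rpl3, a large subunit protein near the catalytic centre, had 47.2, 34.2 and 41.2 CPM in CR and 27.5, 22.8, 26.6 and 21.8 CPM in EX (log2 fold change 0.73 ± 0.13, adjusted p = 0.0079). Without CR library 1, the highest, the medians were 0.24 and 0.26. The numbers of DEGs were 2 and 0 without CR library 1, 2 and 1 without EX library 1, 2 and 0 without EX library 2, 2 and 2 without EX library 3, and 5 and 4 without EX library 4. They were 15 and 11 without CR library 2, 13 and 13 without CR library 3, and 1 and 0 with the slow fibre score as a covariate. Ribosomal protein genes have many near-identical pseudogenes, among which the counting could have split reads.

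**Figure D4:**
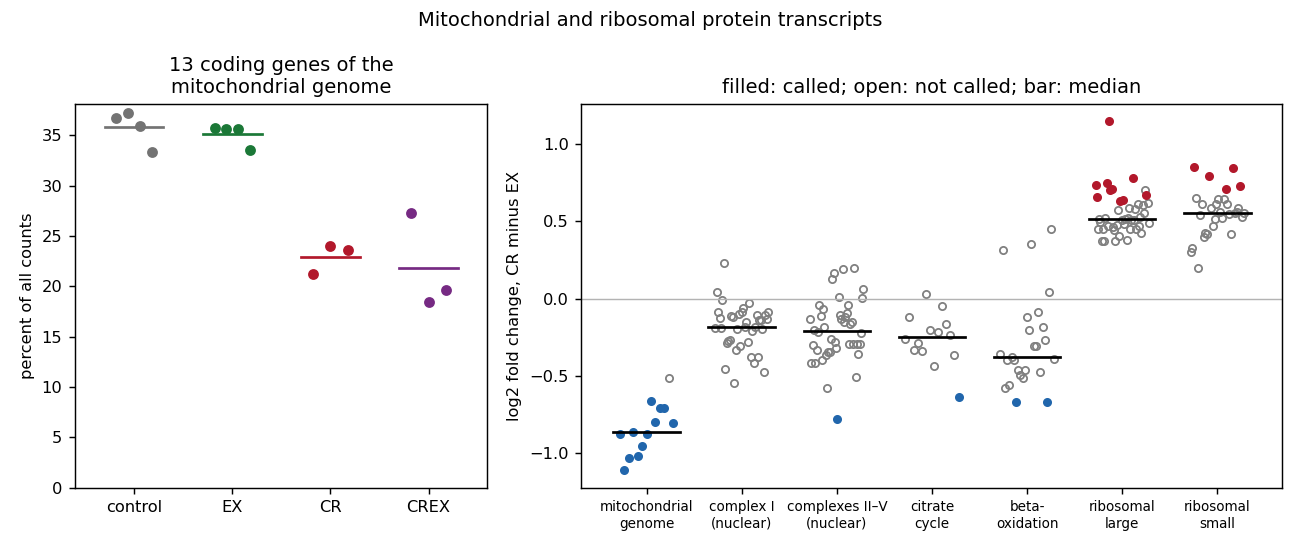
Left, the share of all counts (percent) in the 13 coding genes of the mitochondrial genome, by library and group, with the line at the group mean, and right, log2 fold changes of CR minus EX for single genes of 7 lists, with DEGs filled and a bar at the list median. The share was 21.2 to 24% in CR and 33.5 to 35.7% in EX, and the medians of the mitochondrial genome (-0.86) and of the large ribosomal subunit (0.51) lay on opposite sides of 0.

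Collagen genes were the most uniformly downregulated group of the extracellular matrix. All 14 fibrillar and related collagens were lower in sign, 9 fell, and the median log2 fold change was -0.92. It was -0.94 in CR minus control, with 10 lower DEGs, and -0.01 in EX minus control. Leaving out any single library left the number at 9, and with the slow fibre score as a covariate there were 7. Col1a1 (chr11:94936224-94953042), a chain of collagen I, the main load-bearing fibre, had 6.71, 5.06 and 7.98 CPM in CR and 53.8, 36.3, 29.9 and 29.5 CPM in EX (-2.50 ± 0.24, adjusted p = 0.000531). Col3a1 (chr1:45311538-45349706), the chain of collagen III of the soft muscle sheaths, had 8.82, 10.4 and 11.0 CPM against 71.1, 62.9, 43.2 and 46.0 CPM (-2.47 ± 0.19, adjusted p = 0.000139). Control muscle held 62.7 ± 6.74 CPM of Col3a1 and the CREX libraries held 17.1, 8.87 and 10.5 CPM. Col6a2, a chain of the microfibrillar collagen VI around each fibre, had 10.6, 13.6 and 13.1 CPM against 40.8, 35.6, 28.1 and 31.2 CPM (-1.45 ± 0.14, adjusted p = 0.000503).

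Basement membrane genes included 5 lower DEGs among 18, with a median of -0.29, which was -0.16 without CR library 1, and 3 fell with the slow fibre score as a covariate. Col15a1, a collagen of the border between basement membrane and stroma, had 3.51, 6.05 and 7.45 CPM in CR and 25, 20.8, 16.2 and 22.0 CPM in EX (log2 fold change -1.88 ± 0.23, adjusted p = 0.00131). Col4a1, a chain of the collagen IV sheet under each fibre and vessel, had 39.0, 49.0 and 47.3 CPM against 98.5, 83.2, 80.2 and 76.0 CPM (-0.90 ± 0.12, adjusted p = 0.00183). Among 30 proteoglycans and matricellular genes 5 fell, and Thbs4, a thrombospondin of tendon and muscle attachment, had 23.2, 19.8 and 22.8 CPM against 49.5, 37.7, 36.9 and 54.4 CPM (-1.02 ± 0.15, adjusted p = 0.00341). The number was 3 without CR library 1, EX library 1 or EX library 2, and 1 with the slow fibre score as a covariate. Dcn, decorin, the abundant small proteoglycan of fibroblasts, had 243, 188 and 239 CPM in CR and 262, 230, 174 and 193 CPM in EX and did not pass (0.06 ± 0.16, adjusted p = 0.84). Among 8 markers of fibro-adipogenic progenitors 3 fell, all of them matrix genes, and the other 5 did not pass. Tenocyte markers summed to 31.4 to 48.8 CPM in CR and 54.0 to 84.9 CPM in EX without overlap, with 1 of 6 tested called lower, namely Thbs4, and a median of -1.06, and their part in the matrix values was not tested.

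Vessel genes were lower in CR, in part. Of 23 angiogenic factors and receptors 8 fell, none rose and the median was -0.39, which was -0.26 without CR library 1. With the slow fibre score as a covariate 4 fell and 1 rose. Among the ligands, Vegfb, a VEGF form of oxidative muscle, had 96.5, 104 and 93.8 CPM in CR and 161, 160, 168 and 162 CPM in EX (log2 fold change -0.73 ± 0.09, adjusted p = 0.0015). Among the receptors, Aplnr, the apelin receptor of endothelium, had 1.45, 1.66 and 1.57 CPM against 5.75, 7.23, 7.82 and 8.99 CPM (-2.25 ± 0.19, adjusted p = 0.000191). Kdr, the main VEGF receptor, had 13, 25 and 24.6 CPM against 43.7, 43.5, 50.7 and 45.8 CPM (-1.14 ± 0.19, adjusted p = 0.00651), and it lost the call in 1 edgeR fit over all gastrocnemius groups (adjusted p = 0.0765). Nrp1, a VEGF co-receptor, differed by -0.85 ± 0.13 (adjusted p = 0.00324). Summed endothelial markers were 176 to 215 CPM in CR and 260 to 329 CPM in EX, and 3 of 8 were called lower. Pecam1, a general endothelial marker, had 50.5, 59.9 and 54.9 CPM in CR and 63.0, 55.8, 72.8 and 55.2 CPM in EX (-0.16 ± 0.12, adjusted p = 0.407). The share of the vessel values that goes with the number of endothelial cells was not tested.

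All 16 antigen presentation genes were lower in sign in CR, 6 of them fell and the median was -1.04. H2-Aa, a chain of MHC class II, which shows peptides to helper T cells, had 1.97, 2.09 and 3.93 CPM in CR and 9.50, 9.72, 7.46 and 6.85 CPM in EX (log2 fold change -1.64 ± 0.24, adjusted p = 0.0033). H2-Eb1, another class II chain, had 1.10, 0.672 and 2.02 CPM against 5.52, 4.75, 4.93 and 4.56 CPM (-1.95 ± 0.29, adjusted p = 0.00332). CR library 3 was highest in CR for both genes and still lay below every EX library. Without CR library 2 or EX library 2 the number that fell was 3, and without EX library 1 it was 4. The dendritic cell score (mean log2 of CPM plus 1 over its markers) was 0.466 to 0.575 in CR and 0.695 to 0.821 in EX without overlap, on markers mostly under 1 CPM, and its part in these values was not tested. MHC genes are a family of similar sequences, among which the counting could have split reads.

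**Figure D5:**
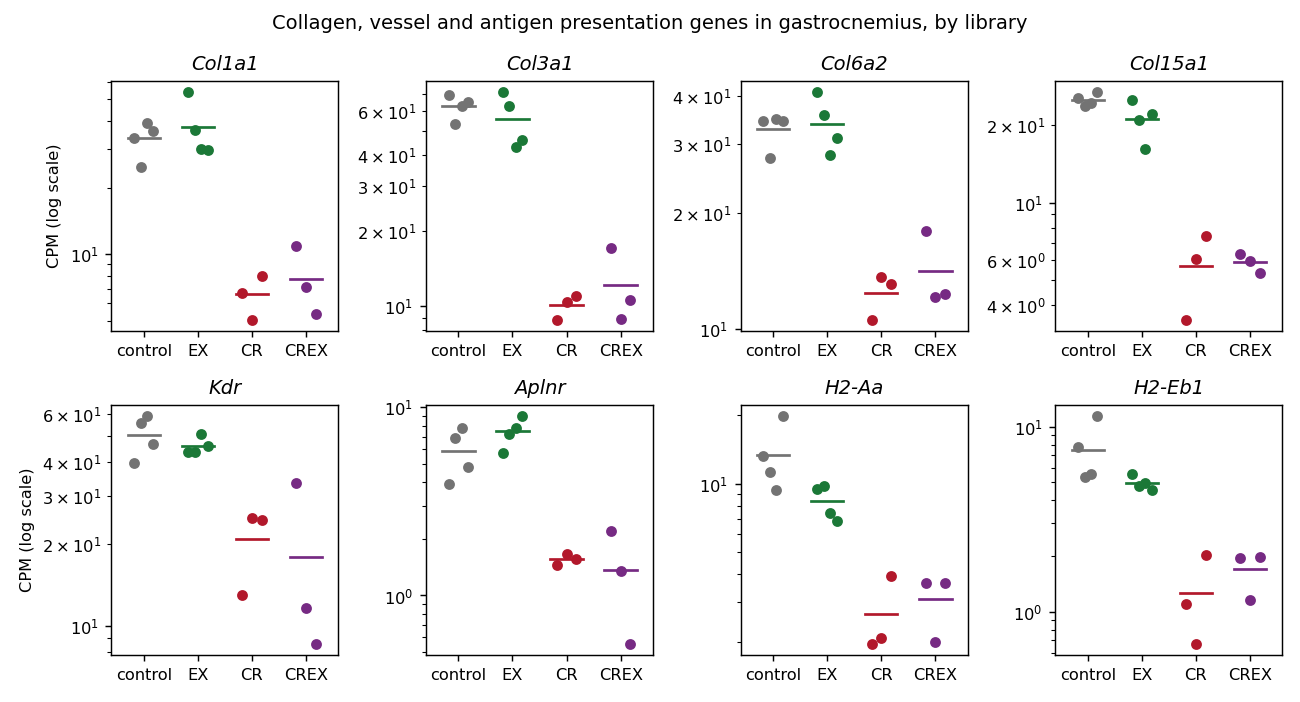
CPM (log axis) of collagen, vessel and antigen presentation genes in each gastrocnemius library, by group, with the horizontal line at the group mean. For Col3a1 the CR libraries lay at 8.82 to 11.0 CPM and the EX libraries at 43.2 to 71.1 CPM, and for Aplnr at 1.45 to 1.66 and 5.75 to 8.99 CPM.

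Among contractile genes 16.7% of the fast fibre list and 5.88% of the slow fibre list were DEGs, against 7.37% of all genes tested. The slow fibre markers varied among the EX libraries as given above. Actn3 (chr19:4861216-4877909), the alpha-actinin of fast fibres, had 14223, 10726 and 9158 CPM in CR and 4509, 4488, 5516 and 5357 CPM in EX (log2 fold change 1.2 ± 0.16, adjusted p = 0.00201). Of 18 fast fibre genes 2 rose and 1 fell, with a median of 0.19, which was 0.059 without CR library 1. Tpm2, the beta tropomyosin, was the one that fell (-0.65 ± 0.11, adjusted p = 0.00494), and it lost the call in 1 edgeR fit over all gastrocnemius groups (adjusted p = 0.200). The other gene that rose, Mylpf, a fast myosin light chain, lost the call without CR library 1 by the fold minimum (0.42) and without EX library 1, 2, 3 or 4 (adjusted p = 0.100, 0.125, 0.107 and 0.0566). Myh7, the slow myosin heavy chain, had 406, 747 and 578 CPM in CR and 14.5, 417, 680 and 164 CPM in EX and did not pass (0.86 ± 1.09, adjusted p = 0.667). Of 17 slow fibre genes 13 were higher in sign, with a median of 0.43, and Myoz2, a Z-disc protein, rose (0.62 ± 0.14, adjusted p = 0.0224). The slow fibre list had a median of 0.026 in CR minus control and of -0.53 in EX minus control. In the CREX libraries the slow fibre markers summed to 758, 120 and 68.0 CPM. Myoz2 lost the call without CR library 1 by the fold minimum (0.50) and without CR library 3 or EX library 1, 2 or 4 (adjusted p = 0.0614, 0.0664, 0.0699 and 0.0592), and without EX library 3 there were 3 slow fibre genes that rose.

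Genes of the neuromuscular junction, several of which rise when a muscle loses its nerve, included 4 higher DEGs and 1 lower among 18, with a median of 0.27, and with the slow fibre score as a covariate 2 were higher and none lower. Chrnb1, a subunit of the acetylcholine receptor, had 59.1, 44.2 and 40.6 CPM in CR and 19.4, 18.5, 18 and 23.1 CPM in EX (log2 fold change 1.28 ± 0.15, adjusted p = 0.000979). Chrna1, the subunit that binds acetylcholine, had 27.2, 23.7 and 18.9 CPM against 10.9, 12.8, 10.9 and 9.04 CPM (1.10 ± 0.15, adjusted p = 0.00183). Both groups were apart for both subunits. Sln, sarcolipin, a small peptide that uncouples the calcium pump, had 8.91, 5.45 and 5.65 CPM against 2.13, 1.04, 1.13 and 1.35 CPM (2.24 ± 0.27, adjusted p = 0.00128). Sln was the DEG among 19 calcium cycling genes (5.26%, against 7.37% of all genes tested). Atp2a1, the fast fibre calcium pump that sarcolipin acts on, was higher by less than the fold minimum (0.42 ± 0.11, adjusted p = 0.0373).

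The study follows several genes as signals between muscle and brown fat, or as targets of such signals. Of 12 of these ligands that were tested 1 rose and 3 fell in CR compared to EX. Apoe, a lipid carrier, had 79.9, 109 and 114 CPM in CR and 54.9, 37.8, 39.1 and 29.9 CPM in EX (log2 fold change 1.32 ± 0.19, adjusted p = 0.00283). Liver makes much Apoe, and CR libraries 2 and 3 were highest for it as for the hepatocyte markers. CR library 1 had a hepatocyte marker sum of 43.5 CPM, against 246 and 238 CPM, and was still above every EX library for Apoe. The part of liver RNA in the Apoe values was not tested. Angpt1, a vessel-stabilising ligand, had 2.50, 3.91 and 2.98 CPM against 7.42, 6.15, 5.60 and 7.5 CPM (-1.09 ± 0.18, adjusted p = 0.00612). The other ligands that fell were Col4a1, described above, and Cx3cl1, fractalkine (-1.83 ± 0.32, adjusted p = 0.00687), and Angpt1 and Cx3cl1 lost the call with the slow fibre score as a covariate (adjusted p = 0.0554 and 0.0525). Gpi1, Col5a3, Nampt, Icam2, Nptn, Bmp5, Inhbb and Pdgfd did not pass, with log2 fold changes of 0.41, -0.27, -0.36, -0.42, -0.07, -0.24, 0.17 and 0.55. Of these, Nptn, Bmp5, Inhbb and Pdgfd are named in the study only as ligands from brown fat, so their muscle values do not bear on a signal from muscle.

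None of 23 sterol synthesis genes passed, with 14 higher and 9 lower in sign and a median of 0.07. Hsd17b7, a late enzyme of the pathway, had 4.65, 6.72 and 5.19 CPM in CR and 3.98, 3.39, 3.30 and 5.54 CPM in EX (log2 fold change 0.45 ± 0.21, adjusted p = 0.192). Fdft1, squalene synthase, differed by 0.16 ± 0.10 and overlapped between groups. The study names respiratory genes as targets in muscle or brown fat, with Ndufs8 named for brown fat only. In muscle Ndufs1 and Ndufs8 of complex I differed by -0.41 ± 0.11 and -0.48 ± 0.13, Cox5a of complex IV by -0.34 ± 0.10 and Atp5h of the ATP synthase by -0.29 ± 0.13. None of these was a DEG, and Ndufs8 passed without CR library 1 (-0.64, adjusted p = 0.000322).

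Beside these lists, the strongest single differences came from genes of varied function. Doc2b (chr11:75768270-75796060), a calcium sensor that helps vesicles fuse in insulin-stimulated glucose uptake, had 8.20, 4.82 and 6.11 CPM in CR and 0.0905, 0.136, 0.316 and 0.14 CPM in EX, where no library held more than 7 counts. Its log2 fold change was 5.18 ± 0.33 (adjusted p = 9.16e-05), control muscle held 0.313 ± 0.0628 CPM and the CREX libraries held 3.41, 3.61 and 5.39 CPM. Dusp10, a phosphatase that switches off stress kinases, had 5.26, 5.26 and 7.68 CPM in CR and 32.3, 32.0, 43.1 and 29.3 CPM in EX (-2.49 ± 0.18, adjusted p = 0.000135). Mir1a-1hg, the host transcript of the muscle microRNA miR-1, had 3.69, 4.50 and 5.08 CPM against 14.5, 15.5, 17.3 and 16.0 CPM (-1.83 ± 0.13, adjusted p = 0.000135). Pde4a, a phosphodiesterase that degrades cyclic AMP, fell as well (-1.73 ± 0.13), as did Kbtbd13, a muscle adaptor of protein breakdown (-1.42 ± 0.12). Each of these genes stayed a DEG when any single library was left out.

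Among the largest decreases was Irf5, a transcription factor of innate immunity, at 0.57, 1.03 and 1.22 CPM in CR and 6.88, 7.42, 5.15 and 5.73 CPM in EX (log2 fold change -2.72 ± 0.24, adjusted p = 0.000235). Col1a1 belonged to the same set, and the rest were transcripts of little known function, such as Irx3os, a transcript on the strand opposite to Irx3, at 0, 0.079 and 0.0764 CPM in CR and 1.22, 1.45, 1.54 and 1.96 CPM in EX. The counting command in the study's methods holds no strand option, and without one reads from Irx3os and from any overlapping stretch of Irx3 cannot be told apart. The largest increases above 1 CPM were liver genes. Ttr, the thyroid hormone carrier of plasma, was at least 80.9-fold higher in CR than the level of 3 counts per library in EX, and Serpina1b, a plasma protease inhibitor with several near-identical copies, at least 90.8-fold. Cps1, the first enzyme of the urea cycle, was at least 18.3-fold higher, and CR library 1 was lowest for all 3 genes, as it was for the hepatocyte markers. Serpina1b lost the call without EX library 4 (adjusted p = 0.0882), and Cps1 lost it without CR library 2 or CR library 3 (adjusted p = 0.0503 and 0.0629).

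EX itself differed from control in 10 genes, measured 24 h after the last run. Nrip1, a corepressor of nuclear receptors, was higher in EX than in control (log2 fold change 0.94 ± 0.12) and higher again in CR than in EX, at 30.9, 43.0 and 36.2 against 23.4, 25.4, 19.4 and 19 CPM (0.75 ± 0.14, adjusted p = 0.00785). Socs2, a brake on growth hormone signalling, was higher in EX than in control (1.33 ± 0.20) and did not pass between CR and EX (-0.58 ± 0.22, adjusted p = 0.114). Aqp4, the water channel of fast fibres, was higher in EX than in control as well (0.65 ± 0.11) and did not pass between CR and EX (-0.36 ± 0.14). Lower in EX than in control were Arntl, described above, Acot2, Ppp1r15a, Gabarapl1, Ehhadh, Tmem140 and Acot1. Of these Acot2, a thioesterase of fatty acid oxidation, had 49.7, 19.8 and 18.9 CPM in CR and 21.7, 21.5, 24.6 and 18.8 CPM in EX with 46.2 ± 9.66 CPM in control, so CR library 1 alone stood at the control level. Tmem140, a membrane protein, had 63.6, 20.4 and 20.5 CPM in CR and 29.8, 31.6, 28.4 and 39.2 CPM in EX (0.12 ± 0.42, adjusted p = 0.891), and without CR library 1 it was a lower DEG (-0.65, adjusted p = 0.0049). Acot1 and Acot2 are near-identical copies, between which the counting could have split reads.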

How the data were processed

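RNA from gastrocnemius was extracted with Trizol and sequenced on a BGIseq500 as paired-end reads. The authors trimmed the reads, mapped them to mm10 with STAR 2.7.10a and quantified genes with RSEM, and deposited unnormalized expected counts for 24770 gene symbols. RSEM is given as 1.2.28 in the submitters' processing notes, and the paper gives another version. Symbols that a spreadsheet had turned into dates (27) and duplicated symbols (2) are not named, and some list members are not reported here.

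Expected counts were rounded and tested with edgeR 4.0.16 (R 4.3.3) on the 3 CR and 4 EX libraries, using TMM factors, filterByExpr and the robust quasi-likelihood F test. Calls needed a fold over 1.5 and p under 0.05 after Benjamini-Hochberg adjustment, the study's thresholds. SE is the log2 fold change divided by the square root of F. CPM used TMM factors of all 14 gastrocnemius libraries. Bounds against EX libraries with 3 counts or fewer use 3 counts per library and cover counting error only. Coordinates are RefSeq GRCm38. P-values measure the spread between samples.

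Genes named are the DEGs with the largest changes without overlap and with the smallest p. Members of described lists with the smallest p or highest level are named as well, as are genes or ligands the study names for muscle or brown fat. Klf9, Cebpb, Dusp1, Tat, Per1, Arntl, Thrsp, ATP8 and the DEGs of EX against control were chosen after their values were seen. The groups compared, gene lists and tests were chosen with earlier results of these data known. Alternatives were DESeq2 1.42.0, RLE factors, 2 other filters, 1 fit over all groups, the replicate block, the slow fibre score as a covariate, no fold minimum and each library left out, and, chosen after seeing the data, the white adipocyte score as a covariate and CR library 1 as the only CR library. The tests were tried on simulated counts first.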

Additional observations from a re-analysis of the deposited data

Results flagged for a closer look

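With 4 EX libraries per quantity, 142 quantities were examined for a library far from the other 3 by Dixon's test. Chance alone passes it in about 1 of 20 such groups, and 9 passed, which is near that rate. EX library 1 was far above the others for Fkbp5 (18.1 CPM against 10.2 to 10.7 CPM), for Elovl6 (1.22 CPM against 0.326 to 0.452 CPM) and for Adipoq (12.8 CPM against 0.14 to 0.271 CPM). It was also the highest for the share of counts in nuclear genes of complexes II to V (1.90% against 1.82%). EX library 1 was the only EX library with any count of Ttr (0.0905 CPM) or Tat (0.0905 CPM), and EX library 4 the only one with a count of Serpina1b (0.0466 CPM), all of them under the level of 3 counts. Where all other libraries are at 0 the test passes at any value. EX library 4 was the highest for Gpi1 (1234 CPM against 953 to 994 CPM) and the lowest for the share of counts in the mitochondrial genome (33.5% against 35.6 to 35.7%). For Fkbp5 and for the mitochondrial share the library that stood apart still lay outside the CR range, which was 79.7 to 119 CPM and 21.2 to 24%.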

How the results depend on the processing

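The number of DEGs (972, 400 higher and 572 lower) was 1097 with DESeq2 and 959 with RLE factors, and moved most with the slow fibre score as a covariate (436, 181 and 255) and with CR library 1 as the only CR library (1841, 936 and 905), where the spread comes from EX alone. Without a fold minimum 872 genes were lower. Leaving out single libraries gave 619 to 990 DEGs, 245 to 475 higher and 374 to 520 lower. The replicate numbers do not pair the samples (correlations of deviations 0.045, 0.164 and -0.040), and the replicate block gave 834 DEGs, ended the calls of Alb (adjusted p = 0.158) and Myoz2 (0.0536), and called Pdk4 (0.00757). Of 450 list medians 428 moved by no more than the SD of the list median between libraries of the same group. A list that varies much between libraries can thus shift far and stay within it. The slow fibre median stayed within it at -0.00014 with the slow fibre score, from 0.43. So did the large ribosomal subunit at 0.24 without CR library 1, from 0.51. The lists named next held medians that moved by more. With the slow fibre score the median was 0.12 for sterol synthesis, 0.45 for PPAR targets, -0.063 for proteoglycans, 0.095 for insulin signalling, -0.074 for amino acid metabolism and -0.066 for the study ligands. With the white adipocyte score it was 0.016 for sterol synthesis, 0.15 for PPAR targets and -0.25 for amino acid metabolism, which stood at -0.055 with the block. PPAR targets reached 0.46 with no filter on low counts. Over single libraries left out the medians were -0.064 to 0.14 for sterol synthesis, 0.18 to 0.40 for PPAR targets, -0.34 to -0.16 for complexes II to V, -0.89 to -0.82 for the mitochondrial genome, -0.42 to -0.12 for proteoglycans, -0.058 to 0.066 for insulin signalling, -0.17 to -0.060 for amino acid metabolism, -1.20 to -0.74 for antigen presentation and -0.31 to -0.14 for the study ligands. Of 1775 values of the genes named, 1691 kept the call or its absence, 76 lost the call and 7 gained it. Tmem140 changed sign without CR replicate 1 (-0.65). Changes of sign were counted only for genes called in the main fit or the alternative, so genes without a call may have changed direction. Causes of these moves were not tested. At this depth genes under 0.140 CPM cannot be told from 0.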

Other observations

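Gene lists not described above held 0 to 5 DEGs in each direction between CR and EX. Of 11 genes of creatine and purine nucleotide handling 1 fell, namely Ckmt2, the mitochondrial creatine kinase of muscle, with 657, 843 and 889 CPM in CR and 2011, 2075, 1522 and 1792 CPM in EX (log2 fold change -1.21 ± 0.15, adjusted p = 0.00131). The groups did not overlap, and control muscle held 1588 ± 147 CPM (SD, n = 4). Of 12 cell proliferation genes 3 rose and 2 fell. Ccnd1, cyclin D1, which opens the G1 phase, had 0.877, 1.38 and 1.60 CPM in CR and 6.97, 3.57, 4.52 and 3.26 CPM in EX (-1.82 ± 0.30, adjusted p = 0.00578), with 3.29 ± 0.462 CPM in control. Among 20 genes of collagen maturation and turnover 2 rose and 2 fell, and Mmp2, the gelatinase that fibroblasts release, had 14.3, 11.8 and 13.3 CPM in CR and 31.3, 24, 21.1 and 20.7 CPM in EX (-0.88 ± 0.15, adjusted p = 0.00651). In the list of 17 sirtuin and NAD genes 4 fell, and Cd38, an enzyme that consumes NAD, had 1.89, 2.33 and 2.94 CPM in CR and 4.57, 5.20, 5.65 and 5.03 CPM in EX (-1.09 ± 0.18, adjusted p = 0.0048). The number was 2 without CR library 2 or CR library 3.

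Of 25 genes of the IGF and myostatin axis none rose and 2 fell, and of 24 chaperones of the heat shock and endoplasmic reticulum lists none rose and 2 fell. Of 22 immediate early genes 3 rose and none fell, and of 24 antioxidant genes 3 rose and 1 fell. Of 20 lipolysis genes 1 rose and 1 fell, of 20 glycolysis genes none rose and 1 fell, and of 15 pyruvate entry genes none rose and 1 fell. Of 21 satellite cell and myogenic genes 1 rose and 1 fell, of 21 interferon-stimulated genes none rose and 1 fell, and of 18 myokines 1 rose and 5 fell. These counts stand against 3.03% and 4.34% of all genes tested, and among the lists not described in the report the highest shares called were in cell proliferation (41.7%), myokines (33.3%) and sirtuins and NAD (23.5%), against 7.37% of all genes tested.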
